A study of Mus musculus with 2 samples.

Results

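Matrix metalloproteinases are zinc enzymes, secreted or anchored at the cell surface, that cut collagens, elastin, gelatin and many non-matrix proteins. The tissue inhibitors of metalloproteinases, encoded by the Timp genes, bind and block them. Myeloid cells carry distinct sets: neutrophils store the collagenase Mmp8 and the gelatinase Mmp9 in their granules, while macrophages are the main source of the elastase Mmp12. The data describe 8 such genes, 6 of the 23 genes named Mmp and 2 of the 4 genes named Timp among the 26124 genes counted: Mmp8, Mmp9, Mmp12, Mmp14, Mmp19, Mmp25, Timp1 and Timp2. They were listed by name, and their values were read by library, by the culture day that a hashtag antibody gave each cell, and by gates set on each cell's own reads of S100a8, Ccr7, Marco and C1qb.

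All cells came from C57BL/6 mice of 8 to 10 weeks, whose bone marrow was depleted of lineage-positive cells and grown with 20 ng/ml GM-CSF. Fresh medium with 40 ng/ml GM-CSF was added to the cultures on day 2. On day 3 the cultures received 300 μM heme-albumin or albumin alone as the control. Each treatment was a single multiplexed library, a pool of cultures tagged days 0, 3, 4, 5 and 7, and no genotype other than the strain was given. The exposure times in the design text name none that matches a tag of day 5, so the length of exposure of that culture is uncertain and days are given as tagged. The tags of days 0 and 3 precede exposure or coincide with the addition, so they show how far the libraries differed at the outset. With 1 library per treatment there was no replicate, and nothing said how many mice contributed. Brackets therefore give 95% intervals for counting error only, and no significance test was possible.

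In GRCm38 (GENCODE M21) the collagenase gene Mmp8 (ENSMUSG00000005800) lies on chromosome 9, positions 7558456 to 7568485, on the plus strand. Mmp12 (ENSMUSG00000049723) lies nearby, at 7344381 to 7369499 on the plus strand, in a run of 10 Mmp genes on that chromosome, and its far end overlaps Mmp1b on the opposite strand. Mmp9 (ENSMUSG00000017737) occupies 164940780 to 164955850 of chromosome 2, Mmp14 (ENSMUSG00000000957) 54431612 to 54445364 of chromosome 14 and Mmp19 (ENSMUSG00000025355) 128790910 to 128800824 of chromosome 10, all on the plus strand. Mmp25 (ENSMUSG00000023903) is on the minus strand of chromosome 17, from 23628311 to 23645277. Timp1 (ENSMUSG00000001131), at 20870166 to 20874735 on the plus strand of chromosome X, lies inside the span of Syn1, which is read from the other strand. Timp2 (ENSMUSG00000017466) is on the minus strand of chromosome 11, from 118301069 to 118355740. Mmp19 also overlaps 2 genes on the opposite strand and Timp2 overlaps Cep295nl on its own strand, so reads in that stretch of Timp2 could belong to either gene.

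RefSeq windows of 250 bases before the start site were found for 6 of the 8 genes; Mmp9 and Mmp19 had none. Those of the 4 genes furthest from a ratio of 1 on day 7, and the windows of Mmp12, the protease with the most UMIs, are shown 5′ to 3′. Capitals mark AP-1 (TGANTCA), the antioxidant response element core (TGACNNNGC) and a C/EBP-type motif (TTGCNNAA), each sought on both strands.
Mmp8, chr9:7558179-7558428 (GRCm38.p6, plus strand): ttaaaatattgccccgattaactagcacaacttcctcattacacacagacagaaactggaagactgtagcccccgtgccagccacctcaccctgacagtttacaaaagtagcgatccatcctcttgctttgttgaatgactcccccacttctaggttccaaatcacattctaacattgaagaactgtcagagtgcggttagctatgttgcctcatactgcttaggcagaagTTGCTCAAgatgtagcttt
Mmp12, its first start site, chr9:7344147-7344396 (GRCm38.p6, plus strand): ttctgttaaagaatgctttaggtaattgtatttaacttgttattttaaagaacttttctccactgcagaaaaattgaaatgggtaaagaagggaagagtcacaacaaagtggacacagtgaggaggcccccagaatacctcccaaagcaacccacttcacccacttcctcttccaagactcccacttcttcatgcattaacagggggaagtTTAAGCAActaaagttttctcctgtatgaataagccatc
Mmp12, its second start site, chr9:7347124-7347373 (GRCm38.p6, plus strand): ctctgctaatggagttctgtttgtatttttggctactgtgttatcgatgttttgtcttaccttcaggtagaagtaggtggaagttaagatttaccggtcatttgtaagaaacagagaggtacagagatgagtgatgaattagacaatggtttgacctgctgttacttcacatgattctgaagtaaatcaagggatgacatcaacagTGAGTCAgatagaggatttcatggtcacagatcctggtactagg
Mmp25, chr17:23645270-23645519 (GRCm38.p6, minus strand): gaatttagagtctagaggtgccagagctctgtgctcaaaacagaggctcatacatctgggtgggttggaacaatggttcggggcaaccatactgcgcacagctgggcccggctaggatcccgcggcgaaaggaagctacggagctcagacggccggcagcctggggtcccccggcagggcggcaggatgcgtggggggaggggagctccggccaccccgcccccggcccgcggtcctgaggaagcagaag
Timp1, chrX:20869916-20870165 (GRCm38.p6, plus strand): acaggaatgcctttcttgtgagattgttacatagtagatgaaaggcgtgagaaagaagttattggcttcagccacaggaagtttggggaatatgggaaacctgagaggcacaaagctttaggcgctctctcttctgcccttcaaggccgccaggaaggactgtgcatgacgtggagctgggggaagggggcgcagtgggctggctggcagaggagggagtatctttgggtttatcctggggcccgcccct
Timp2, chr11:118355412-118355661 (GRCm38.p6, minus strand): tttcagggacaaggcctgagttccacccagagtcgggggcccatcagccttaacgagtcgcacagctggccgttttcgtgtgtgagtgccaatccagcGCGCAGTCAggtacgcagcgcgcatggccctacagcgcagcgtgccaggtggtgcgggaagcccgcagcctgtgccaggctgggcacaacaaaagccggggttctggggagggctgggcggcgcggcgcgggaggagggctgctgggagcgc
The window of the second Mmp12 start site, inside the annotated gene, held the AP-1 letters, found in 6.75% of the 32851 windows of this length. The Timp2 window, also inside its annotated gene, held the antioxidant response element core, on the reverse strand, found in 10.2%. The Mmp8 window and that of the first Mmp12 start site, near the annotated gene start, held the C/EBP-type motif, as did 9.56% of all windows. The Timp1 and Mmp25 windows held none of these letters, nor did that of Mmp14, which is not shown. These matches describe letters and say nothing of binding.

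After the study's filters, 9253 of 12050 singlet cells remained in the control library and 9690 of 14164 in the heme library. The kept cells of a culture numbered 359 (control, day 0) to 2565 and held 2344257 to 32835088 UMIs, that is, counted RNA molecules. Of the barcodes, 112 occurred in both libraries, 0.802% of the control and 0.645% of the heme barcodes. The upper limit of 5000 genes per cell removed 1.92 to 8.34% of the control singlets of a day but 16.4 to 33.9% of the heme singlets, and ratios without that limit are given where they moved by over 1.5 times, with some smaller shifts. Levels are given as CPM, UMIs of a gene scaled to the same total in every culture or gate. Because reads come from the 3′ end of each molecule, they are not scaled by length, and levels are compared between samples rather than between genes. Markers of the expected myeloid cells were abundant. The summed markers of stromal cells, a known source of Timp and Mmp transcripts, were at most 16.6 CPM in any culture, and those of lymphoid cells at most 69.5, on day 0.

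Mmp8, the neutrophil collagenase, was higher in the heme library once heme had been added. In the control library Mmp8 read 23.9, 138, 422, 403 and 334 CPM on days 0, 3, 4, 5 and 7, and in the heme library 27.9, 149, 814, 1748 and 964. Before exposure the libraries were close, with a heme to control ratio of 1.08 [1.04 to 1.13] on day 3. From day 4 every heme culture was above every control culture. The ratio was 1.93 [1.88 to 1.97] on day 4, 4.34 [4.25 to 4.44] on day 5 and 2.89 [2.82 to 2.95] on day 7.

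Mmp9, the gelatinase kept in tertiary granules, was mainly a transcript of days 4 and 5. Its levels were 20.9, 20.0, 175, 146 and 35.7 in the control and 12.0, 36.0, 296, 312 and 26.6 in the heme library. The heme cultures were higher on days 3 to 5 and lower on day 7, with ratios of 1.80 [1.63 to 1.99], 1.69 [1.63 to 1.75], 2.14 [2.05 to 2.23] and 0.744 [0.677 to 0.817]. Without the upper gene limit these ratios were 1.14, 1.22, 1.11 and 0.473, so that most of the excess of days 3 to 5 depended on which cells were kept.

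Mmp12, the macrophage elastase, had the most UMIs of the 8 genes in both day 7 cultures. It stood at 40.1, 252, 649, 1098 and 2034 CPM in the control library and at 162, 320, 1069, 1921 and 2357 in the heme library. The heme library was already 4.04-fold [3.28 to 5.03] higher on day 0. Erythroid cells of that day, not known as a source of Mmp12, held 40.0 in the control and 130 in the heme library. The day 0 difference was therefore not read as expression. On days 4, 5 and 7 the Mmp12 ratio was 1.65, 1.75 and 1.16, short of 2-fold. Without the upper gene limit it was 2.57, 3.37 and 1.59.

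Mmp14, a membrane-anchored enzyme that cuts collagen and activates other members of the family, and Mmp19, a secreted enzyme of macrophages and other cells, gave fewer UMIs. Mmp14 read 6.40, 2.88, 15.2, 21.0 and 42.1 in the control and 16.3, 7.34, 22.4, 41.4 and 81.7 in the heme library. The heme culture was higher on every day, day 0 included, and the ratio of day 3 was the largest (2.55 [1.98 to 3.31], against 1.47, 1.97 and 1.94 on days 4, 5 and 7). Mmp19 read 5.97, 5.65, 11.8, 12.0 and 30.3 in the control and 6.08, 10.9, 29.3, 41.1 and 64.1 in the heme library. Its ratio was 1.93 [1.60 to 2.34] on day 3, 2.49 [2.18 to 2.85] on day 4, 3.43 [3.00 to 3.93] on day 5 and 2.12 [1.96 to 2.29] on day 7. Without the upper gene limit the day 4 and day 5 ratios were 2.24 and 2.97 for Mmp14 and 4.23 and 6.20 for Mmp19.

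Mmp25, an enzyme anchored at the surface of leukocytes by a lipid tail, changed sides over time. The control library held 2.56, 18.4, 41.0, 26.8 and 25.3 CPM and the heme library 2.45, 43.0, 60.5, 25.1 and 6.75. The heme cultures were higher on days 3 and 4 (2.33 [2.11 to 2.58] and 1.48 [1.37 to 1.60]), not distinguishable by counting error on day 5 (0.937 [0.833 to 1.05]) and lower on day 7 (0.267 [0.226 to 0.313]). On day 3 the ratio without the upper gene limit was 1.40, and on day 5 it was 0.537.

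The inhibitors went apart. Timp1, a secreted inhibitor that many cells make upon inflammatory stimulation, read 1.28, 1.64, 10.5, 11.6 and 14.0 in the control library. In the heme library it read 0.0981, 1.64, 0.911, 1.34 and 1.00, which rested on 1, 54, 25, 26 and 27 UMIs. The libraries were level on day 3 (1.00 [0.666 to 1.51]), after which the control cultures were higher and the heme cultures lay between 0.911 and 1.34. The heme to control ratio was 0.0866 [0.0551 to 0.131], 0.115 [0.0742 to 0.173] and 0.0716 [0.0467 to 0.106] on days 4, 5 and 7. With the cells above the upper gene limit included, it was 0.241, 0.264 and 0.195, lower on each day but by a smaller factor. The ratio of day 3 was then 0.673 [0.464 to 0.982], and the heme cultures held 0.972, 2.58, 4.75 and 2.78 on days 3, 4, 5 and 7.

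Timp2, which also takes part in the activation of the gelatinase Mmp2 by Mmp14, read 12.8, 20.6, 57.3, 58.4 and 34.4 in the control and 15.4, 28.1, 69.5, 77.0 and 108 in the heme library. The cultures were within 1.37-fold of each other on days 3, 4 and 5. On day 7 the heme culture held 3.14-fold more [2.93 to 3.37], as the control level was below that of day 5 and the heme level above it. The ratio of Timp2 to Timp1 transcripts was therefore far from equal between the day 7 cultures, with 1130 and 459 UMIs in control and 2914 and 27 in heme-exposed cells.

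**Figure D1:**
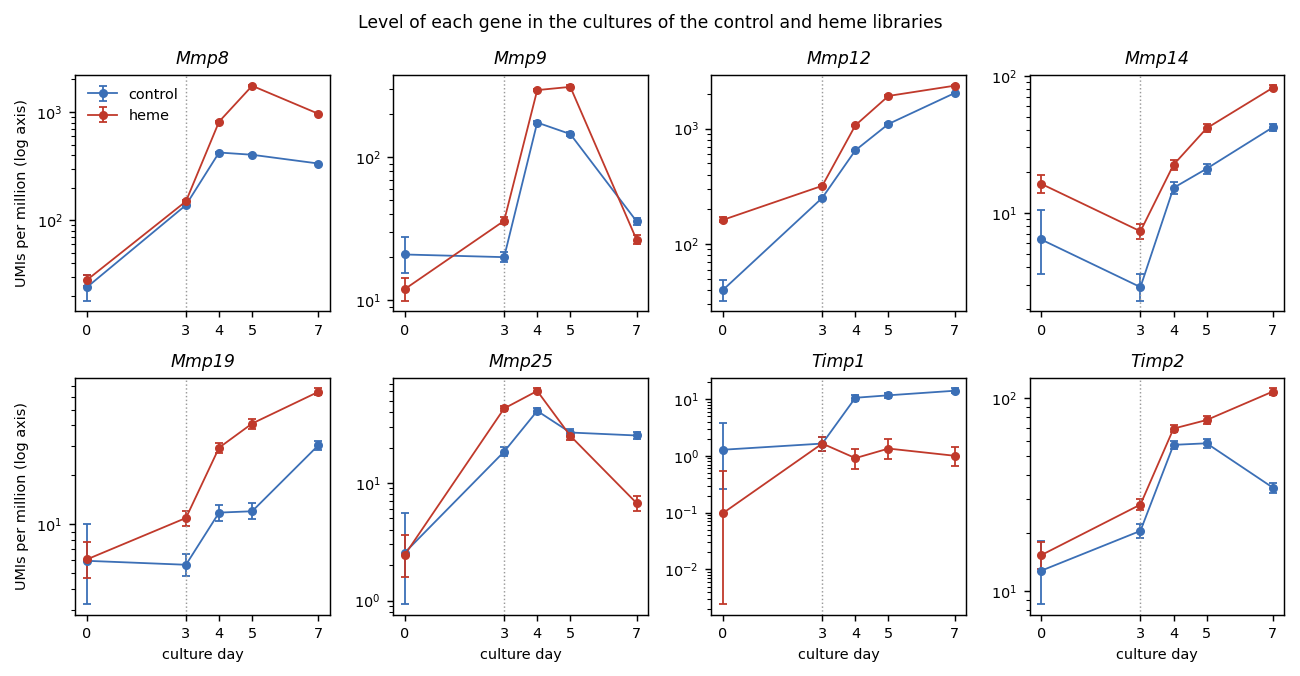
Level in CPM (log axis) of each gene against culture day in the control (blue) and heme (red) libraries; points are single cultures, bars 95% Poisson intervals, and the dotted line marks day 3, when heme-albumin or albumin was added. Mmp8 parted after day 3 to 964 against 334 on day 7, Timp1 to 1.00 against 14.0, and Timp2 only on day 7, to 108 against 34.4.

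Counted at a limit of 2-fold, among genes with at least 20 UMIs over both cultures and 10 CPM in at least 1 of them, 1 of 6 members tested was higher in the heme culture on day 3 (Mmp25) and 0 lower. Mmp14, with 2.55 on that day, was under the minimum level. Over all genes 3.38% were higher and 0.155% lower on that day. On day 4, 1 of 8 was higher (Mmp19) and 1 lower (Timp1), beside 4.86% and 2.17% of all genes. On day 5, 3 were higher (Mmp8, Mmp9 and Mmp19) and 1 lower (Timp1), beside 5.25% and 2.49%. On day 7, 3 were higher (Mmp8, Mmp19 and Timp2) and 2 lower (Mmp25 and Timp1), beside 11.8% and 4.88%. The median log2 ratio of the 8 genes was 0.64, 0.89 and 0.59 on days 4, 5 and 7, and that of all genes tested was 0.25, 0.22 and 0.27.

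Several members differed before exposure, so each ratio was also divided by that of day 3. Mmp8 then stood at 1.78, 4.01 and 2.66 on days 4, 5 and 7. Timp1 stood at 0.0865, 0.115 and 0.0716, and Timp2 at 2.30 on day 7. Mmp19, in contrast, was at 1.29, 1.78 and 1.10, and Mmp14 at 0.578, 0.772 and 0.761. Mmp9 was at 0.939, 1.19 and 0.414, so that its day 4 value lay below 1, Mmp12 at 1.30, 1.38 and 0.912, and Mmp25 at 0.635, 0.402 and 0.114. On day 7 the ratios of Mmp8, Mmp19 and Timp2 were thus above those of day 3, that of Mmp19 only slightly, and those of Mmp9, Mmp12, Mmp14, Mmp25 and Timp1 were below them.

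**Figure D2:**
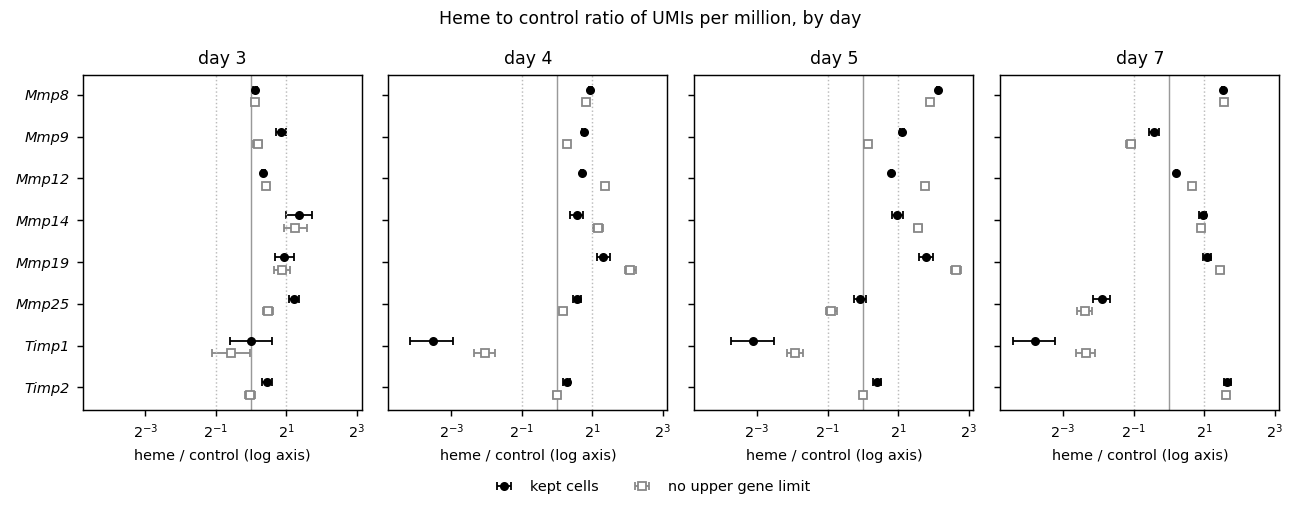
Heme to control ratio of CPM (log axis) for each gene on days 3, 4, 5 and 7; filled circles are the kept cells, open squares the same cells plus those above the upper gene limit, bars 95% intervals of counting error, and dotted lines 2-fold. Timp1 lies left of the 2-fold line on days 4, 5 and 7 in both versions, and Mmp9 on day 5 moves from 2.14 to 1.11.

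To separate levels from the mix of cells, each cell was placed in the first gate it passed: S100a8-high (at least 1% of its UMIs from S100a8, a neutrophil protein gene), Ccr7-positive, Marco-positive and C1qb-positive (at least 2 UMIs of the homing receptor of mature dendritic cells, of a macrophage scavenger receptor or of a complement subunit made by macrophages), or the rest. The marker sums of a gate include the gene that set it. Over all days the summed neutrophil markers were 244817 CPM in control and 214618 in heme S100a8-high cells, against at most 2640 in any other gate. The C1qb-positive cells also had high dendritic cell markers, led by the MHC class II chaperone gene Cd74 (17163 CPM for that list in the control library), so they were not macrophages alone. Heme Marco-positive cells had 1934 CPM of macrophage markers, of which Marco itself gave 1009, beside 2190 of neutrophil and 2193 of dendritic cell markers.

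The mix of kept cells differed widely. On day 4 the S100a8-high gate held 68.8% of control and 83.4% of heme cells, and on day 5 57.4% and 73.8%. The upper gene limit had left out 516 heme cells on day 4 and 754 on day 5, of which 24.6% and 9.42% were S100a8-high. It had left out 153 and 218 control cells, of which 7.84% and 3.67% were. The shares therefore depend on that limit. On day 7 the control culture had 5.30% S100a8-high, 16.2% Ccr7-positive, 0.585% Marco-positive and 26.3% C1qb-positive cells, with 51.6% in the rest. The heme culture had 23.3%, 1.89%, 38.3%, 0.249% and 36.3%. A level is given for gates with at least 50 cells. On day 7 S100a8-high cells and the rest were therefore read in both cultures (at most 53 cells of a culture passed more than 1 gate). Marco-positive cells were read in the heme culture and Ccr7-positive and C1qb-positive cells in the control.

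**Figure D3:**
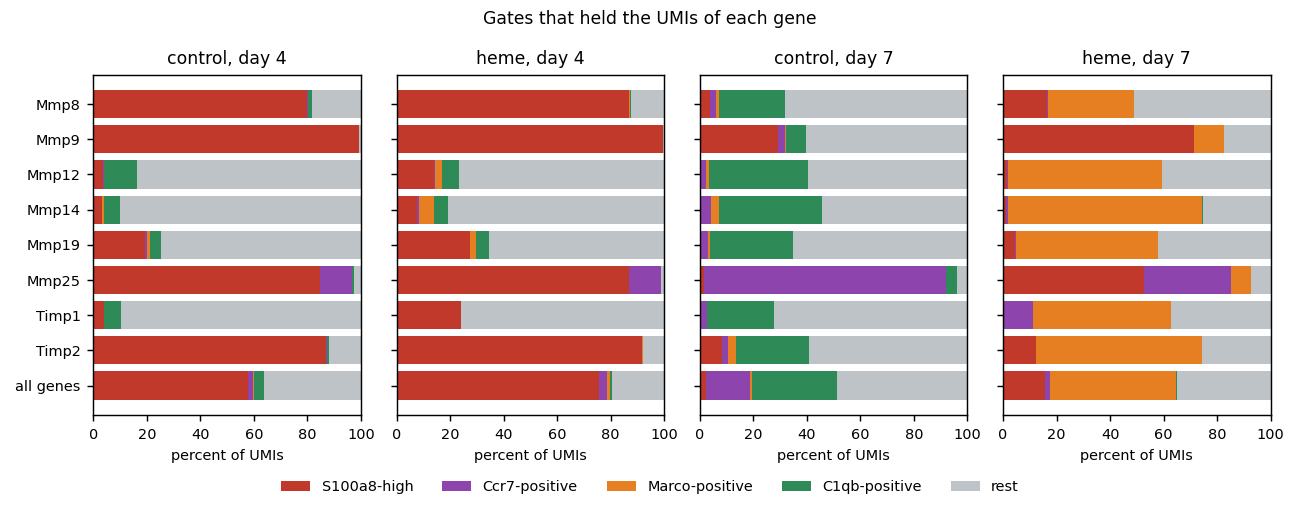
Share of the UMIs of each gene, and of all genes together, that came from each gate in the control and heme cultures of days 4 and 7 (percent). S100a8-high cells held 99.3% and 99.5% of the Mmp9 UMIs on day 4, and Ccr7-positive cells 90.4% of the Mmp25 UMIs of the day 7 control culture.

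The neutrophil proteases did not behave alike within S100a8-high cells. Mmp8 stood there at 586, 775 and 608 CPM in the control and 934, 2477 and 1028 in the heme library on days 4, 5 and 7. The heme cells were higher each time, by 1.59-fold [1.56 to 1.64], 3.20-fold [3.11 to 3.28] and 1.69-fold [1.53 to 1.87]. They were already 1.77-fold [1.64 to 1.92] higher on day 3, 111 against 62.8, so only the day 5 ratio was above that of day 3. Mmp8 was not confined to that gate. In the rest it was 214, 245 and 469 in control and 520, 997 and 1401 in heme cultures, 2.44-, 4.07- and 2.99-fold higher. The day 3 ratio in the rest was 0.957 [0.907 to 1.01]. With S100a8-high cells left out of the culture sums, the ratio was 2.21, 4.13 and 2.90 on days 4, 5 and 7.

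Mmp9 came almost wholly from S100a8-high cells on days 4 and 5. In them it was 302 and 387 in the control and 389 and 545 in the heme library, ratios of 1.29 [1.24 to 1.34] and 1.41 [1.35 to 1.47]. The ratio in this gate was already 1.51 [1.36 to 1.67] on day 3. On day 7 the order was the opposite, with 489 in 136 control cells and 122 in 469 heme cells, a ratio of 0.250 [0.217 to 0.287]. The gate was not alike on that day. Control cells in it had 141474 CPM of neutrophil and 2046 of dendritic cell markers, heme cells 172652 and 334. Their median depths were 3744.5 and 7451 UMIs. The part of these differences in the Mmp9 ratio was not tested. The rest showed the same order on that day, 44.3 against 13.1. The heme culture also had more S100a8-high cells, and its whole-culture ratio was 0.744.

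Mmp12, Mmp14 and Mmp19 came mainly from cells outside the neutrophil gate, although S100a8-high cells held 27.3% and 23.1% of the heme Mmp19 UMIs on days 4 and 5 and 19.3% and 15.6% of those in the control. In the rest, Mmp12 was 1499, 1938 and 2484 in control and 4245, 5310 and 2726 in heme cultures of days 4, 5 and 7, ratios of 2.83 [2.77 to 2.89], 2.74 [2.69 to 2.79] and 1.10 [1.08 to 1.11]. These day 4 and day 5 ratios are above those of the whole cultures, in which a larger share of the kept heme cells were S100a8-high. Mmp14 in the rest was 37.9, 38.7 and 47.1 in control and 93.9, 98.4 and 59.3 in heme cultures, and Mmp19 was 24.2, 19.1 and 40.4 against 99.6, 97.1 and 77.4. The heme cells were thus 2.48-, 2.55- and 1.26-fold higher for Mmp14 and 4.11-, 5.09- and 1.91-fold higher for Mmp19. On day 3 the rest of the heme library was already 3.60-fold higher for Mmp14 and 2.21-fold for Mmp19.

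Marco-positive cells, found almost only in the heme culture of day 7, carried the highest Mmp14 of the gates read on that day and Timp2 at about the level of the control S100a8-high cells. Their 770 cells held 126 CPM of Mmp14, 2.13-fold [1.93 to 2.34] the level in the rest of the same culture and 2.47-fold [2.24 to 2.73] that of the control C1qb-positive cells. Timp2 was 143 in them (134 in control S100a8-high cells), 1.81-fold [1.66 to 1.97] the rest and 4.80-fold [4.25 to 5.43] the control C1qb-positive cells. They supplied 72.6% of the Mmp14 and 62.1% of the Timp2 UMIs of that culture from 38.3% of its cells, beside 47.1% of its UMIs of all genes. Mmp12 (2883) and Mmp19 (72.3) were near the rest of that culture (2726 and 77.4), and Mmp8 was lower (663 against 1401).

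**Figure D4:**
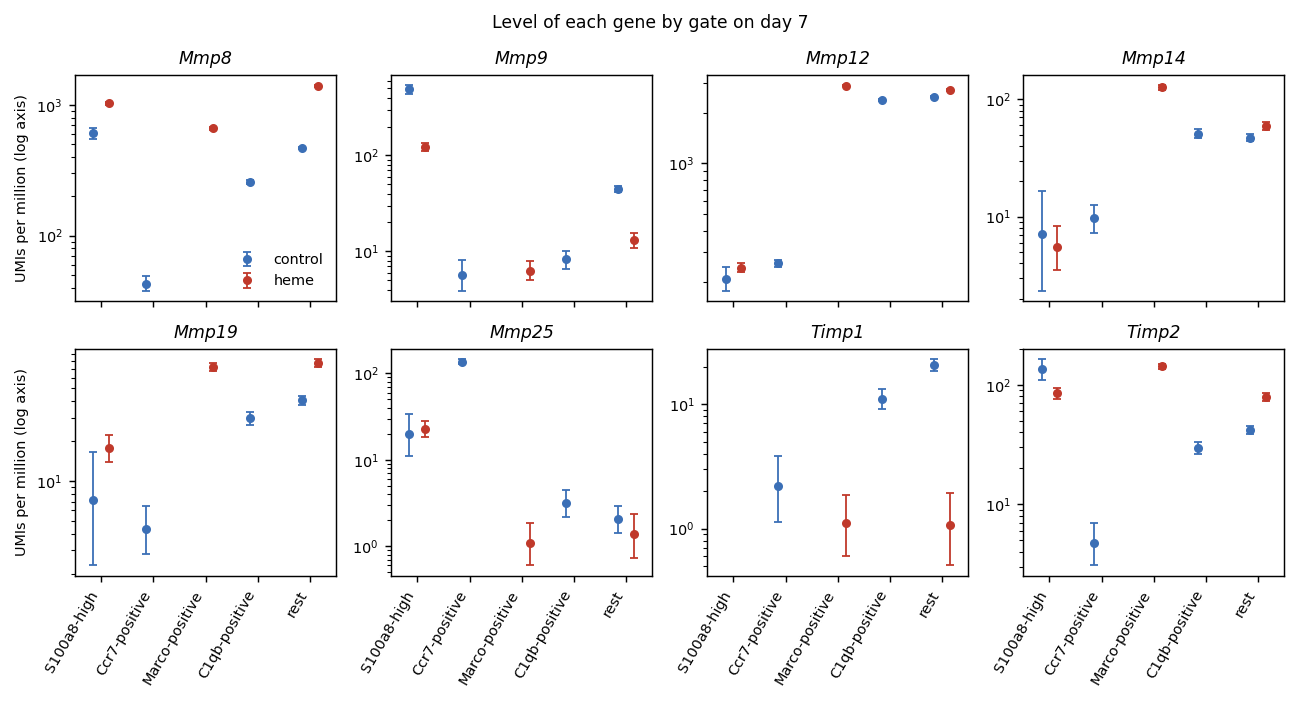
CPM (log axis) of each gene by gate on day 7 in the control (blue) and heme (red) cultures, for gates with at least 50 cells; bars are 95% Poisson intervals, and Timp1 in S100a8-high cells, with 0 UMIs in both cultures, is not drawn. Mmp14 peaks in heme Marco-positive cells at 126, where Timp2 is 143, and Mmp25 peaks in control Ccr7-positive cells at 137.

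In the control library Mmp25 had separate main sources early and late. On day 4 S100a8-high cells held 84.9% of its UMIs in control and 87.1% in heme-exposed cells, at 60.3 and 69.6 CPM. On day 5 it was highest in Ccr7-positive cells, with 173 in control and 128 in heme-exposed cells, a ratio of 0.742 [0.623 to 0.882]. On day 7 it stood at 137 in the 415 control Ccr7-positive cells, 43.3-fold [30.5 to 63.3] the level of C1qb-positive cells. The heme culture had 38 Ccr7-positive cells, too few for a level here. They held 32.4% of its Mmp25 UMIs, beside 52.7% in its S100a8-high cells. On day 5 these 2 gates held 42.3% and 53.6% in the heme culture, against 55.1% and 31.4% in the control. The Mmp25 level of S100a8-high cells was similar in both cultures of day 7, at 20.0 and 22.9 (ratio 1.15 [0.651 to 2.17]). With Ccr7-positive cells left out of the sums, a comparison added after the values were seen, the day 7 ratio of Mmp25 was 1.59 in place of 0.267.

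Of the gates that carried Timp1 in the control, only the rest had enough cells in both libraries, and there it was low in heme. Control C1qb-positive cells held 25.0 on day 5, but the heme cultures had 11, 10 and 5 such cells on days 4, 5 and 7. The 10 of day 5 held 11.5% of the 26 Timp1 UMIs of their culture, beside 1.29% of its UMIs of all genes. That share is too few molecules to read as a level. Timp1 was near the floor in S100a8-high cells, with 11, 4 and 0 UMIs in control and 6, 2 and 0 in heme cultures of days 4, 5 and 7. In the rest it was 26.1, 19.5 and 20.8 CPM in control and 3.59, 2.86 and 1.06 in heme cultures, ratios of 0.138 [0.0816 to 0.220], 0.147 [0.0839 to 0.240] and 0.0510 [0.0242 to 0.0950]. The Marco-positive cells of day 7 held 1.10, against 11.0 in control C1qb-positive cells (ratio 0.100 [0.0530 to 0.175]). These last are different gates, so that this ratio sets different cells side by side.

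Timp2 showed the reverse arrangement. On days 4 and 5 S100a8-high cells held 87.1% and 75.9% of its UMIs in control and 91.6% and 81.4% in heme cultures. Within them the libraries were close on day 4 (86.5 and 84.2) and the heme cells were somewhat lower on days 5 (125 and 112) and 7 (134 and 84.8, ratio 0.631 [0.501 to 0.801]). In the rest the heme cells were higher, 28.2 against 18.8, 38.2 against 26.7 and 79.0 against 41.8. The whole heme culture of day 7, 3.14-fold higher, also held the Marco-positive cells with 62.1% of its Timp2 UMIs.

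When both cultures were given the same mix of gates, the ratios of days 4 and 5 changed for most genes. This used the gates with 50 cells in both, 96.3% and 95.7% of the kept cells, whose mix depends on the upper gene limit. Mmp12 moved from 1.65 and 1.75 to 2.90 and 2.72, Mmp14 from 1.47 and 1.97 to 2.44 and 2.49, and Mmp19 from 2.49 and 3.43 to 3.66 and 4.52. Timp1 moved from 0.0866 and 0.115 to 0.151 and 0.166 and Mmp8 from 1.93 and 4.34 to 1.71 and 3.47, both still on the same side of 1. Mmp9 moved from 1.69 and 2.14 to 1.30 and 1.45, Mmp25 from 1.48 and 0.937 to 1.16 and 0.836 and Timp2 from 1.21 and 1.32 to 1.02 and 1.01. On day 7 only the S100a8-high gate and the rest could be used, 58.3% of cells, so Marco-positive, C1qb-positive and Ccr7-positive cells are absent from that value. It was 2.74 for Mmp8, 0.337 for Mmp9, 1.25 for Mmp25, 0.0474 for Timp1 and 1.51 for Timp2. Mmp12, Mmp14 and Mmp19 were at 1.03, 1.17 and 1.83, below their whole-culture ratios of 1.16, 1.94 and 2.12.

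Within S100a8-high cells 6 members were tested on each day. On day 4, 2 were at least 2-fold higher in heme cells (Mmp12 and Mmp19) and 0 lower, beside 7.68% and 0.553% of all genes. On day 5, 3 were higher (Mmp8, Mmp12 and Mmp19) and 0 lower, beside 5.62% and 1.31%. On day 7, 1 was higher (Mmp19, on 5 control UMIs) and 1 lower (Mmp9), beside 14.2% and 4.61%. The Mmp12 values need a further comparison. Heme S100a8-high cells held 143, 196, 218 and 242 CPM on days 3, 4, 5 and 7, and 133 erythroid cells of day 0 in that library, not known as a source of Mmp12, held 130 [116 to 145]. The control S100a8-high cells held 36.5, 41.2, 52.3 and 209, and 28 erythroid cells of that library 40.0 [24.4 to 61.7]. Free RNA in the droplets was not measured directly, and the level of neutrophils on days 3 to 5 was not far above that of these cells in either library. It was therefore not read as expression or as a difference between treatments.

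S100a8-high cells were also split by Camp, a secondary granule gene of developing neutrophils, at 100 and 1000 CPM. On day 4 of the control, Mmp25 was 14.7, 29.2 and 72.3 in Camp-low, Camp-middle and Camp-high cells, and in the heme culture 34.1, 42.4 and 77.0, highest with Camp in both. Mmp8 in the heme culture ran the other way, 1793, 1369 and 792, while the control was highest in the middle bin (572, 897 and 538). On day 5 heme cells held 2584, 2561 and 2210 of Mmp8 and control cells 949, 942 and 614, so the heme cells were higher in each bin. Mmp9 on day 5 was 577, 418 and 277 in control and 516, 533 and 601 in heme-exposed cells, close in Camp-low cells and higher in heme Camp-high cells. Timp2 differed little, between 106 and 136 in all 6 bins of that day.

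**Figure D5:**
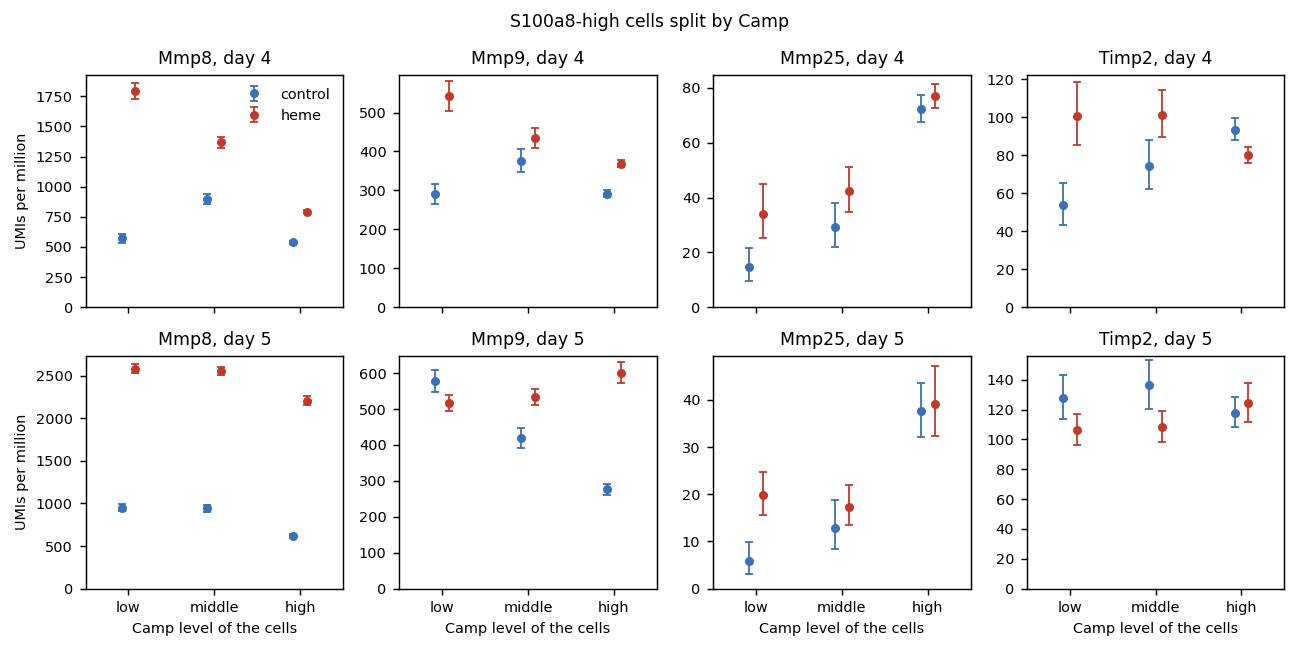
CPM of Mmp8, Mmp9, Mmp25 and Timp2 in S100a8-high cells split by Camp (low, under 100; middle; high, 1000 or more CPM) on days 4 and 5, control in blue and heme in red; bars are 95% Poisson intervals. Mmp25 is highest in Camp-high cells (72.3 and 77.0 on day 4), and Mmp8 on day 5 is higher in heme cells in every bin.

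Shares of cells with a UMI were compared after thinning each cell to 3000 UMIs, which left out shallower cells. On day 7 Mmp8 was found in 49.9% of the control rest and 78.7% of the heme rest, and in 71.9% of Marco-positive cells, beside 4.84% of control Ccr7-positive cells, where its level was lowest. Without thinning these shares were 63.1%, 90.0%, 93.9% and 9.16%, at median depths of 11368, 12750, 17024 and 12141 UMIs. Mmp25 was found in 32.4% of control Ccr7-positive cells against 0.826% of the rest (66.3% and 2.27% without thinning). Timp1 was found in 2.56% of the control rest and 0.148% of the heme rest (5.21% and 1.37% without thinning). At this depth its distribution over single cells could not be resolved.

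Other genes of the pathway were read from lists. Of 17 other Mmp genes, 2 could be tested on day 7. The collagenase Mmp13 was higher in the heme culture, 16.7 against 2.10 CPM (7.92-fold [6.14 to 10.4]), and Mmp23 was lower, 1.74 against 11.2. On day 3, under the minimum level, the heme culture was already higher for Mmp13, by 5.34-fold [2.61 to 12.3] on 9 control and 54 heme UMIs. Mmp23 was then higher in it too, by 3.19-fold on 12 and 43 UMIs. Of 6 other inhibitors the plasminogen activator inhibitor Serpinb2 alone was testable and lower, 11.4 against 24.8. Among 13 activators and partners 11 were tested and 6 were higher, 0 lower, on day 7, beside 11.8% and 4.88% of all genes. They were the proprotein convertase Furin (2.01-fold), the granule proteases Elane (2.67) and Prtn3 (2.55), the hyaluronan receptor Cd44 (2.06), the Mmp9 partner Lcn2 (5.80) and the uptake receptor Lrp1 (2.92). On days 3, 4 and 5 the same list had 0, 0 and 1 higher and 3 lower each time, with median log2 ratios of -0.08 and -0.19 on days 4 and 5. Elane and Prtn3 were on the other side on day 4, at 0.147 and 0.216. Of 6 ADAM proteases 1 was lower, Adam19 (0.187). Of 12 substrate and matrix genes, 6 were tested and 2 were higher, Lamc1 (3.29) and Vcan (4.66), while fibronectin, Fn1, was lower, 6.79 against 532.

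Among 10 genes of secondary and tertiary granules, all tested, 7 were higher in the heme culture of day 7 and 0 lower: Camp (7.77-fold), Ltf (13.8), Ngp (19.0), Lcn2 (5.80), Cybb (2.24), Slc11a1 (5.59) and Cd177 (13.6). The shares over all genes were 11.8% and 4.88%. On days 3, 4 and 5 only 1, 2 and 1 of the list were higher and 0, 0 and 1 lower, with medians of 0.21 and 0.09 on days 4 and 5, below the 0.25 and 0.22 of all genes. The summed neutrophil markers of these cultures were 4246 CPM in control and 28851 in heme-exposed cells. Mmp8 and Mmp9, which share this compartment, stood at 2.89 and 0.744 on that day. The part of the neutrophil excess in the granule gene values was not tested.

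The genes whose log2 level over the 10 cultures ran most like that of a member, among 9701 genes, are given as a description, since the cultures share 2 libraries. They were Bst1, Fas and Prr13 for Mmp8 (Pearson's r of 0.986, 0.983 and 0.981) and Ifnlr1, Ltb and Apol7c for Mmp9 (0.955, 0.952 and 0.930). For Mmp12 they were Ccdc71l, Clec4n and Slc6a6 (0.983, 0.982 and 0.978), for Mmp14 Zfhx3, Ids and Ifnar1 (0.978, 0.971 and 0.948), and for Mmp19 Klf6, Cd84 and Slc23a2 (0.981, 0.980 and 0.978). Sp140, Tbc1d8 and Scamp2 were nearest to Mmp25 (0.968, 0.960 and 0.957). Tnfsf15, Asb2 and Tnfsf8 were nearest to Timp1 (0.970, 0.941 and 0.936), and Arg2, Fpr1 and Slc11a1 to Timp2 (0.977, 0.977 and 0.963). Within the 8 genes, Mmp8 and Timp2 were the most alike (0.949), followed by Mmp8 and Mmp12 (0.915).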

How the data were processed

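The measurement was droplet single-cell RNA sequencing (10x Genomics 3′ v3.1) of 2 multiplexed libraries. By the submitters' processing notes the authors aligned reads to GRCm38.p6 and counted molecules with Cell Ranger 4.0.0 and assigned cells to hashtags with Seurat 3.2.3; the headers of the deposited matrices name a later Cell Ranger release. The deposited values are raw UMI counts per gene and barcode, with the hashtag call of each barcode. The calls removed doublets of different hashtags; doublets within a hashtag were not sought.

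Here singlets with 500 to 5000 genes, at most 15% mitochondrial and 30% ribosomal protein UMIs were kept. UMIs were summed per culture or gate and scaled to the same total (CPM). Intervals are exact (Poisson, conditional binomial; 95%) and cover counting error only. Groups were 1 library each, so no test was run; 2-fold served as the limit for genes with 20 UMIs or more. Calls were tested on simulated data. Alternatives used edgeR 4.0.16 (TMM), DESeq2 1.42.0 size factors, other cell filters, gates and limits, with Python 3.11.15 and SciPy 1.17.1. Members and gene lists were chosen with earlier results of these data known. All 8 members are named; of other listed genes, those past 2-fold on day 7 are named, with day 4 values of Elane and Prtn3 added after they were seen.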

Additional observations from a re-analysis of the deposited data

Results flagged for a closer look

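The direction of the heme to control ratio differed between days for 2 members, with counting intervals that leave out 1 on both sides; neither difference between days was tested. Mmp9 stood at 2.14 on day 5 and 0.744 on day 7. Mmp25 stood at 2.33 on day 3, at the time of addition, and at 0.267 on day 7, when 90.4% of its control UMIs were in Ccr7-positive cells. Timp2 differed in direction between gates, also untested: on day 5 the ratio was 1.43 in the rest and 0.896 in S100a8-high cells, and on day 7 it was 1.89 and 0.631.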

How the results depend on the processing

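No paired analysis was possible because each treatment was 1 library, and no replicate could be left out. Of 132 values of the member counts under other settings, 114 were within 1.5 times the reported count. Whole-culture log2 ratios of days 4, 5 and 7 were less stable. Under other settings 114 stayed within the reported counting interval and 171 left it. A further 1, from a reported ratio of at least 2-fold, passed to the other side of 0. Smaller ratios that passed 0 were counted by the interval alone. Among these were Mmp14 relative to day 3, at -0.79, -0.37 and -0.39 on days 4, 5 and 7, and Mmp25 on day 4 (-0.66). Of the other values, 287 stayed within their range and 156 did not. On day 3 the count of members 2-fold higher (1) was 0 with TMM factors, median-ratio size factors, the mean CPM of cells, all singlets or no upper gene limit, 2 with the day 0 erythroid level subtracted, with no filter on low counts or without S100a8-high cells, and 3 at 1.5-fold. On day 4 it (1) was 4 at 1.5-fold, 3 with all singlets or no upper gene limit, 5 without S100a8-high cells and 0 relative to day 3. On day 5 it (3) was 5 at 1.5-fold and 1 relative to day 3, where the count of lower members (1) was 2. On day 7 the count of lower members (2) was 1 without Ccr7-positive cells, where the log2 ratio of Mmp25 was 0.67, above 0 instead of below it. The settings without a gate were added after the data were seen.

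Timp1 was lower on days 4, 5 and 7 under each scaling and cell filter tried, between log2 ratios of -4.56 and -1.90, and Mmp8 was higher, between 0.64 and 2.14. Both scaling factors moved the median log2 ratio of all genes on day 7 from 0.27 to 0.02 (TMM) and 0.04 (size factors). On that day TMM took Mmp12 from 0.21 to -0.04 and Mmp19 to 0.83, under 2-fold. Subtracting the erythroid level left Mmp14 below 0 on days 3 to 5, and no value is given there. The same subtraction took the log2 ratio of Mmp12 on day 3 from 0.35 to -0.16. The cells above the gene limit held 41.1 to 62.5% of the UMIs of a heme culture of days 3 to 7 and 14.5 to 24.8% in the control. Day 0 of the control library (359 cells) limits the precision there most.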

Other observations

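Mmp14 UMIs were also found in the erythroid cells of day 0, where the part of free RNA was not tested. Cells of day 0 with at least 2 UMIs of Klf1, an erythroid transcription factor, held 52.6 CPM [43.9 to 62.5] in 133 cells of the heme library, 153% of the level of that whole library. In 28 cells of the control library the value was 24.0 [12.4 to 41.9], or 115%, on 12 UMIs. That interval holds the level of the whole control library, 20.8. The other members were all below the library level in the heme erythroid cells. Timp1 was at 35.8% of it (1 UMI), Timp2 at 16.8% and Mmp12 at 10.7%. Mmp19, Mmp9, Mmp8 and Mmp25 were at 5.09%, 3.83%, 1.85% and 1.27%.

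Ccr7-positive cells of day 5 numbered 135 in control and 94 in heme. In them Mmp8 was 6.36 and 61.6 CPM, Mmp12 55.9 and 532 and Mmp14 1.82 and 18.7, on 4 and 30 UMIs for the last. Their neutrophil markers over all days summed to 1128 and 2054 CPM, and the part of RNA from other cells in these values was not tested.

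The cells above the upper gene limit, left out of the report's levels, lay mostly in the rest on days 3 to 5 in both libraries (61.0 to 83.9% of them in the control, 61.8 to 69.4% in heme), with 24.8% and 24.6% of the heme cells in the S100a8-high gate on days 3 and 4. On day 7, 53.0% of the 756 such heme cells were Marco-positive, and 54.3% of the 151 such control cells were C1qb-positive. Their Mmp12 was 4483 and 2906 CPM and their Timp1 4.52 and 15.5.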
